A study of Oryza sativa with 16 samples.

Results

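Class III peroxidases of rice were followed through 16 RNA-seq libraries of seedling roots and shoots. The genes were taken by symbol, as every gene whose name begins, in any case, with prx or osprx and a digit. The rule found 105 genes among the 37849 genes of the files, of which 9826 carry a symbol. One of them, OsPRX2 (Os02g0537700, chromosome 2 from 19882081 to 19885745), matches the rule by name but is known as a 2-Cys peroxiredoxin of the chloroplast and not as a class III peroxidase. It is kept in the counts, and without it the joint tests lose 1 call, in the comparison of root with shoot, where 13 in place of 14 genes were lower in roots. A further 9 genes with names of the pox type fall outside the rule and are described separately.

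The libraries come from IR64, an indica variety, and Nagina 22 (N22), an aus variety, grown in pots of vermiculite and perlite with ammonium nitrate as the nitrogen source. Each genotype received either full nitrogen and water, written N+W+, or too little nitrogen with enough water, written N-W+. The third set, written N+W-, lacked water alone, and the fourth, N-W-, was short of both. For each of the 2 genotypes, 2 tissues and 4 treatments, material of 3 biological replications went into 1 library, so there is no replicate within a group. Plants with full water are labelled 15 days old and those with limited water 21 days old. The paper instead describes 21 days of growth for all seedlings, with low water only from day 15. If the labelled ages hold, the effects of water and age cannot be told apart. The labels give 10 ml of water per day against 100 ml, from day 15. They contradict each other on nitrogen, with 0.4 mM under stress and 0.08 mM otherwise in one place and 0.04 mM for N-W+ in another. In the paper 0.08 mM is the low nitrogen dose and the optimal dose is far higher. Its reduced water volume also differs from the label. Where 4 values of a genotype follow each other, optimal supply comes first, then low nitrogen, then low water, then the combined stress.

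Class III peroxidases are secreted heme enzymes of plants that oxidise phenolic compounds with hydrogen peroxide. In the cell wall they couple lignin monomers and cross-link wall polymers, and in another reaction cycle they release reactive oxygen species that loosen the wall. In grasses the family is large, has grown by tandem duplication, and is known for its activity in roots and for its response to stress and pathogens. For most numbered genes no individual role is stated here, and they are described by position, tissue and response.

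Exon reads per library ran from 8272195 to 13675454 in roots and from 2420338 to 11379518 in shoots, and the shallowest library was that of N22 shoots under N-W+. Exon reads were 8.50% of its mapped fragments, against 19.1% to 33.3% in the other shoot libraries. The 105 genes took between 0.309% and 0.680% of the exon reads in roots and between 0.150% and 0.453% in shoots. The tissue labels were checked with marker genes. The summed level of 31 genes of photosystems, light harvesting and the small subunit of Rubisco was 23.6 to 136 CPM (total exon reads as a share of the library, scaled by TMM within a tissue) in roots and 17280 to 223300 CPM in shoots. The summed level of 10 root genes, mostly of nitrate and silicon transport, was 1830 to 10740 CPM in roots and 31.1 to 160 CPM in shoots. Reads of both genotypes had been mapped to a japonica reference, so a lower count in one genotype and a poorer match of its sequence cannot be told apart.

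The genes lie on all 12 chromosomes, with 18 on chromosome 6, 15 on chromosome 3 and 2 each on chromosomes 8 and 12. Between 1 and 9 exons are annotated, most often 2 (27 genes), 3 (23 genes) or 4 (22 genes). In all, 65 genes sit in 22 tandem arrays, taken as neighbours less than 50 kb apart. Only genes of the symbol rule were counted, so array sizes leave out the pox genes. The locus numbers of POX8.1, POX22.3, POXgX9, POX5.1 and POX3006 fall between those of the array neighbours prx109 and prx115. The longest array so counted, on chromosome 5 from 2010153 to 2082747, holds the 7 genes prx65 to prx71. The next, on chromosome 4 from 35187443 to 35246736, holds the 6 genes prx59 to prx64. Coordinates are those of the files, on build IRGSP-1.0. Only 2 genes, prx8 and prx73, had no read in any library, and 51 had reads in every library. At least 1 CPM was reached in some library of both tissues by 67 genes, in roots only by 25, in shoots only by 5 and in neither tissue by 8.

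A few genes held a large part of the reads. The 5 highest genes made up 37.6% to 47.3% of the summed level in root libraries and 44.0% to 69.9% in shoot libraries. Levels of different genes were compared per exon length, as the deposited RPKM values. In roots the highest median over 8 libraries was that of prx65 (Os05g0134400), at 94.95 RPKM with a range of 53.1 to 135.5. It was followed by prx72 (Os05g0162000) at 78.9 with a range of 32.5 to 205.4. Next came prx71 at 54.8, prx54 at 53.5, PRX45 at 42.95 and prx70 at 38.6 RPKM, and the ranges of all 6 genes overlapped. In shoots the order of median RPKM was prx65 at 55.1, prx71 at 47.9, prx29 at 41.3, prx122 at 30.95, prx89 at 28.3 and OsPRX2 at 27.5. The shoot ranges were wider and also overlapped, from 2.99 to 170.7 RPKM for prx65 and from 1.505 to 103.3 RPKM for prx29 (Os02g0240300). RPKM is scaled to mapped fragments, so it is lowered in the N22 N-W+ shoot library, where few fragments were exon reads. That library gave the lowest prx29 value, with 1.505 RPKM and 16.3 CPM, against 4.91 RPKM and 18.6 CPM in IR64 N-W+ shoots.

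The summed level of the family was lower at low nitrogen in roots and lowest at optimal supply in shoots. In roots it was 5217, 3192, 5837 and 3831 CPM in IR64 and 7030, 3273, 6239 and 4337 CPM in N22, so that the 4 low nitrogen libraries lay below the 4 libraries with optimal nitrogen. In shoots it was 2486, 3322, 3161 and 3892 CPM in IR64 and 1532, 3287, 3217 and 2937 CPM in N22, where N+W+ was lowest in each genotype. These sums describe single libraries and were not tested. In pooled tissue, fewer cells of a type and less RNA per cell cannot be told apart.

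**Figure D1:**
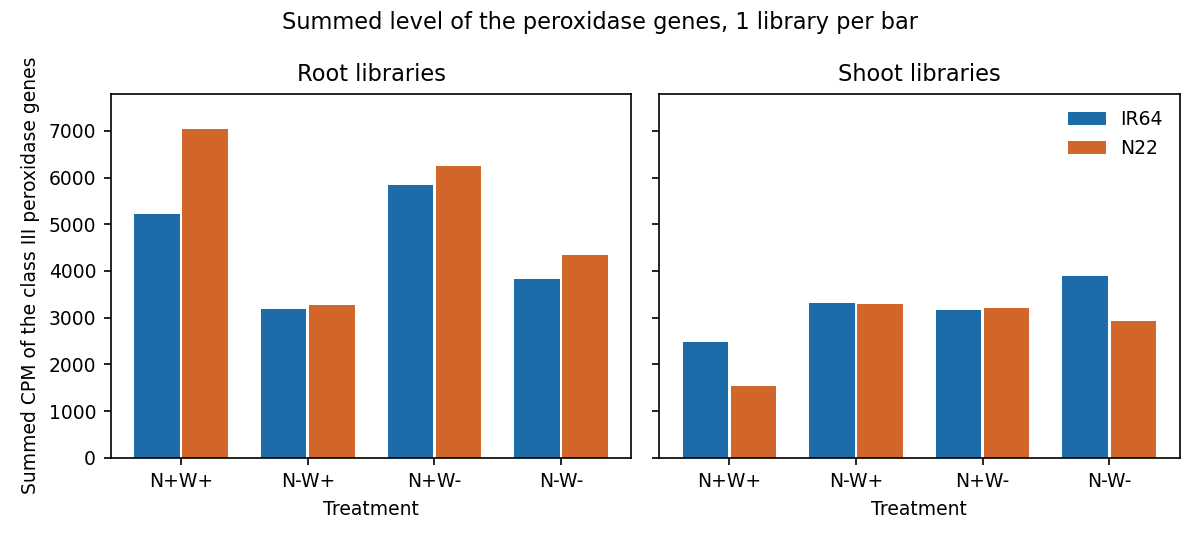
Summed level of the 105 genes in CPM (vertical axis, from 0) by treatment, in root libraries (left) and shoot libraries (right), with 1 bar for each library and colours for the genotype. In roots the bars of both low nitrogen treatments (3192 to 4337 CPM) are lower than the bars at optimal nitrogen (5217 to 7030 CPM), and in shoots the bars of N+W+ (2486 and 1532 CPM) are the lowest of each genotype.

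The largest differences in the family were those between root and shoot. A quasi-likelihood test in edgeR over all 16 libraries kept root and shoot of the same plants together, and its p was adjusted over 26422 genes. Of the 105 genes, 91 passed the read filter. It called 52 of them higher in roots, where 22.1% of all genes tested were called higher, and 14 lower in roots, where 20.1% of all genes were. The median log2 difference was 2.01 over these 91 genes and 0.13 over all genes tested, and 1.94 where the 3 genes without a shoot read were set to their bound.

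Several genes with high root levels were nearly without reads in shoots. For prx107 (Os07g0639000, chromosome 7 from 26603637 to 26604964) the root libraries held 88.7, 35.65, 168.9 and 85.96 CPM in IR64 and 173.0, 65.3, 227.4 and 107.3 CPM in N22. The 8 shoot libraries held 1 read of prx107 together, which gave a log2 ratio of 12.48 with a 95% counting interval from 10.0 to 17.8. For prx54 (Os04g0423800, chromosome 4 from 20954485 to 20955826) root levels of 67.5 to 942 CPM stood against 0 to 0.308 CPM in shoots, a log2 difference of 10.52 ± 0.64 (SE, adjusted p = 1.47e-06). Root and shoot libraries of both genes were far from overlapping. The same held for prx67 with 1 shoot read and 19.45 to 62.7 CPM in roots, and for prx72 with 131.2 to 949 CPM in roots and at most 1.54 CPM in shoots. The gene prx68 had 10.9 to 53.5 CPM in roots and at most 0.374 CPM in shoots. No shoot read was found for prx5, with 1.32 to 7.12 CPM in roots, which made it at least 7.10-fold higher in roots with a floor of 3 counts in each shoot library.

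A smaller group belonged to shoots. The clearest was prx132 (Os11g0210100, chromosome 11 from 5699982 to 5702081), with 1 read over the 8 root libraries and 0.635 to 146 CPM in shoots, a log2 ratio of root to shoot of -12.25 with a counting interval from -17.56 to -9.78. The gene prx29 had 16.3 to 548.5 CPM in shoots and 0.102 to 3.34 CPM in roots, a log2 difference of -7.78 ± 0.60 (SE, adjusted p = 4.89e-06). Differences of -4.97 ± 1.34 for prx62, -4.44 ± 0.97 for PRX41 and -4.12 ± 0.97 for prx138 also passed the test. The gene prx79 was called lower in roots on 46 shoot and 1 root reads, with a log2 ratio of -6.30 and a counting interval from -11.64 to -3.75, and it lost the call under library totals (adjusted p = 0.0707) and in DESeq2 (adjusted p = 0.633). The peroxiredoxin OsPRX2 was lower in roots by 2.61 ± 0.33 on the log2 scale.

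**Figure D2:**
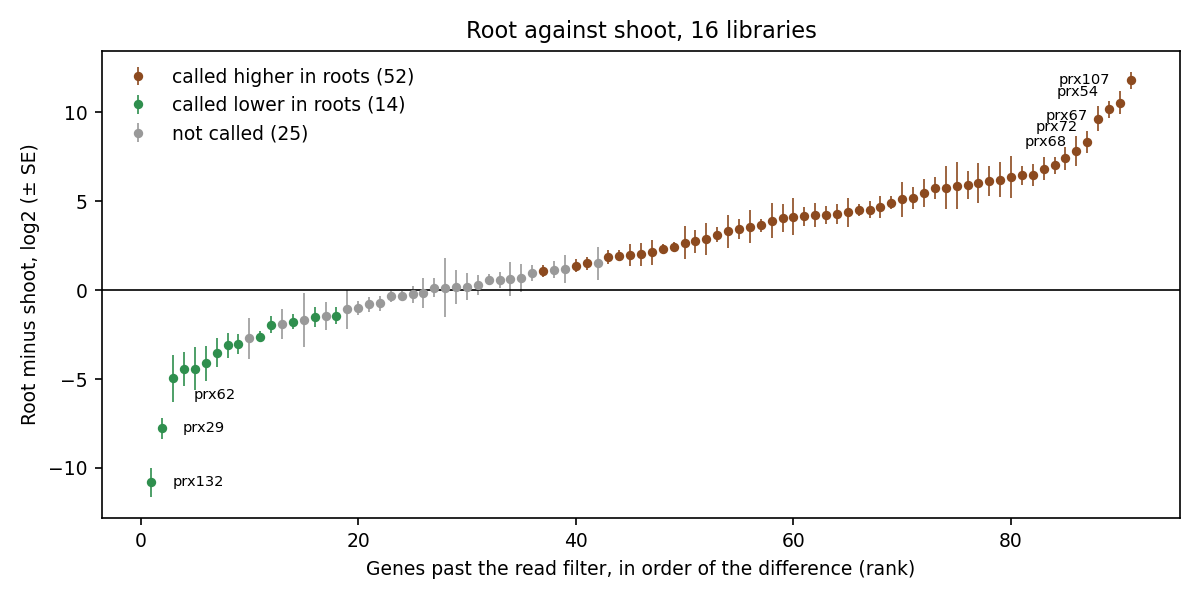
Difference between root and shoot on the log2 scale (vertical axis, point with ± 1 SE) for the 91 genes past the read filter, in order of the difference (horizontal axis, rank), coloured by the call of the joint test. The 52 genes called higher in roots fill the right of the plot up to prx107, and the 14 called lower stand on the left, led by prx132 and prx29.

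Neighbours in an array differed in tissue. In the array of chromosome 5, prx66, prx67, prx68, prx69 and prx70 were called higher in roots by 4.48 to 10.16 on the log2 scale, while the outermost genes prx65 (0.29) and prx71 (0.13) were not called and were high in both tissues. In the array of chromosome 4, prx59, prx60 and prx64 were called higher in roots by 2.29, 5.91 and 6.37, prx62 and prx63 lower by -4.97 and -1.94, and prx61 (-0.32) was not called. The pair PRX41 and prx40, next to each other on chromosome 3 from 12611816 to 12619711, was split, with log2 differences of -4.44 and 4.37.

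Many of these genes rose in shoots at low nitrogen. Under N-W+ against N+W+, 23 genes rose and 4 fell on average over both genotypes, of the 64 past the filter. Over all genes tested, 7.6% rose and 5.38% fell. The median log2 change was 2.09 over the 64 genes and 0.00 over all genes. The test was the edgeR quasi-likelihood fit over the 8 shoot libraries with terms for genotype and treatment, with 3 residual degrees of freedom. The only replication it has is that between the 2 genotypes.

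The rises were steep where the gene was nearly silent at optimal nitrogen. For prx2 (Os01g0205900, chromosome 1 from 5789333 to 5790753) the shoot libraries held 0.159, 70.98, 0.217 and 121.7 CPM in IR64 and 0.598, 98.7, 0.313 and 41.8 CPM in N22. All 4 low nitrogen libraries lay far above the other four, and the joint log2 change under N-W+ was 7.73 ± 0.83 (SE, adjusted p = 0.00975). The shoot gene prx132 held 0.635, 63.1, 1.73 and 119.6 CPM in IR64 and 3.44, 146.2, 3.29 and 81.2 CPM in N22, a change of 5.71 ± 0.71 (adjusted p = 0.0117). It too was low in both libraries of each genotype at optimal nitrogen and high in both at low nitrogen. For prx58 (Os04g0656800) the values were 0.318, 12.05, 0.542 and 16.8 CPM in IR64 and 0.150, 31.45, 1.56 and 7.67 CPM in N22. With 3 reads in the N+W+ libraries together, its log2 ratio was 6.35 with a counting interval from 4.78 to 8.64. PRX134 (Os11g0661600) held 0.318, 15.1, 0.650 and 25.2 CPM in IR64 and 0.299, 16.03, 0.313 and 9.63 CPM in N22, a change of 5.62 ± 0.66 (adjusted p = 0.0110).

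Of the other steep rises, prx64 (Os04g0689000), a gene of the chromosome 4 array that is high in roots, had no read in either N+W+ shoot library. It held 15.9 CPM in IR64 and 6.48 CPM in N22 under N-W+, at least 27.2-fold higher with a floor of 3 counts in each N+W+ library. Its N-W- values of 13.8 CPM in IR64 and 0.187 CPM in N22 lay far apart. The gene prx17 rested on 1 read at N+W+, with a log2 ratio of 5.62 and a counting interval from 3.05 to 10.97. Genes with a higher base moved as well. The gene prx138 (Os12g0530100, chromosome 12 from 20890100 to 20899533) held 7.31, 132.9, 13.98 and 170.2 CPM in IR64 and 6.88, 89.1, 16.1 and 154.4 CPM in N22, a change of 3.95 ± 0.38 (adjusted p = 0.00876). Its low nitrogen libraries all lay above the rest. The most highly expressed gene of the family, prx65, held 184.3, 787.9, 538.0 and 798.6 CPM in IR64 and 25.6, 481.0, 250.9 and 355.3 CPM in N22, a change of 3.03 ± 0.60 (adjusted p = 0.0258). Here the N+W- library of IR64 lay above both low nitrogen libraries of N22. The remaining 15 genes that rose did so by 2.08 (prx55) to 4.98 (prx24) on the log2 scale.

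Of the 4 genes that fell in low nitrogen shoots, prx62, prx29 and prx15 had also been called higher in shoots than in roots. The largest fall was that of prx62 (Os04g0688500, chromosome 4 from 35215245 to 35216755), with 109.8, 1.51, 23.7 and 3.03 CPM in IR64 and 216.0, 1.54, 86.96 and 5.24 CPM in N22. Its joint log2 change was -6.57 ± 0.56 (adjusted p = 0.00876). The gene prx29 (chromosome 2 from 7948543 to 7949997), one of the highest in shoots, held 497.8, 18.6, 318.8 and 47.9 CPM in IR64 and 458.0, 16.3, 548.5 and 49.65 CPM in N22, a change of -4.77 ± 0.45 (adjusted p = 0.00876). For both genes all libraries at low nitrogen were below all at optimal nitrogen. The array partner of prx29, prx30, fell by 4.36 ± 0.94 on the log2 scale from 9.37 and 10.3 CPM at N+W+ to 0.837 and 0 CPM at N-W+. The fall of prx15, of 1.69 ± 0.39, was lost under library totals (adjusted p = 0.0903) and with unique reads only (adjusted p = 0.0522), and 46.2% of its shoot reads mapped uniquely. The array of prx25, prx26 and prx27, on the same chromosome from 7751287 to 7771054, had 2 genes that rose, prx27 by 4.64 and prx26 by 2.17, while prx25 (2.90) was not called.

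**Figure D3:**
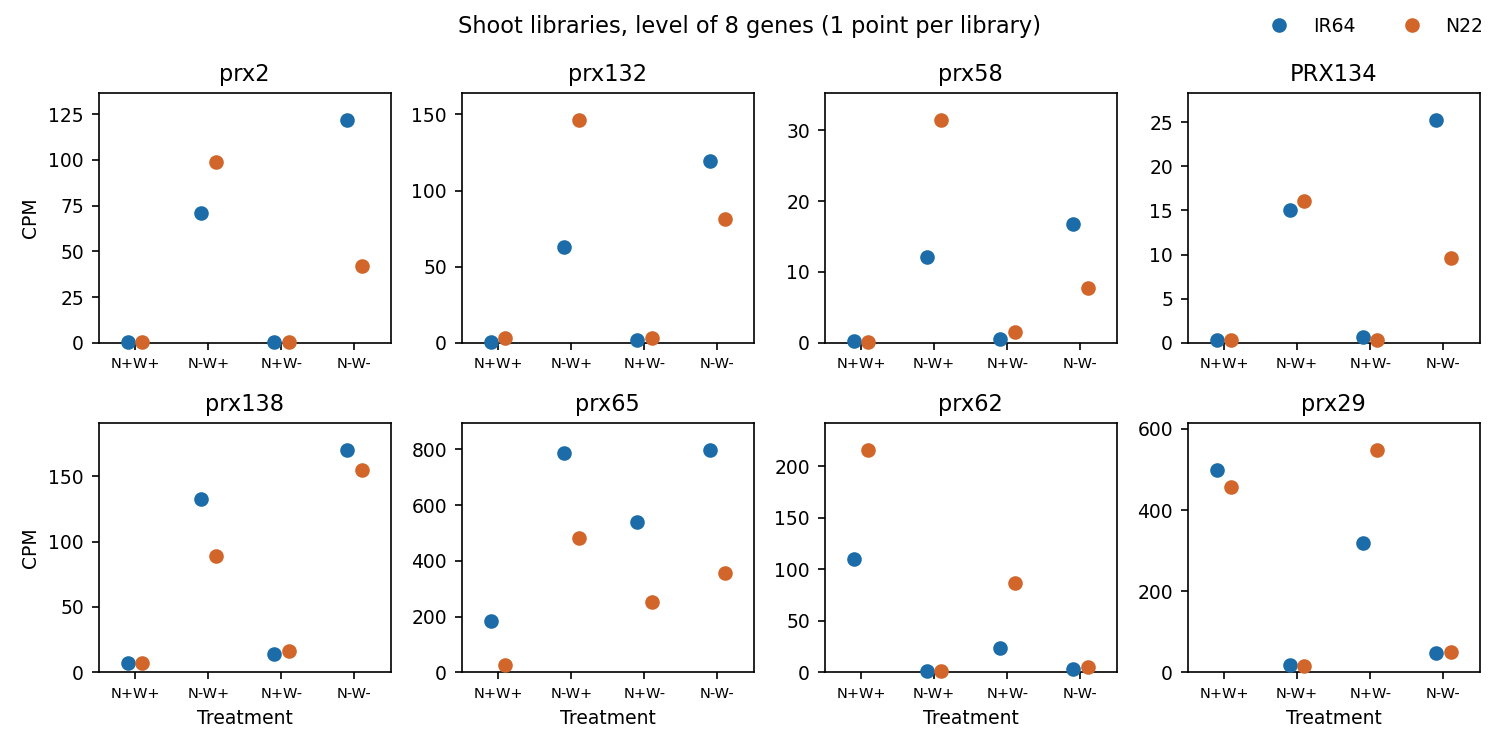
Level of 8 genes in the 8 shoot libraries, in CPM (vertical axis, from 0, with its own scale in each panel) by treatment, 1 point per library, coloured by genotype. Points of prx2, prx132, prx58, PRX134 and prx138 are high in the low nitrogen treatments and near the axis or low at optimal nitrogen, prx65 is also above N+W+ under N+W-, and prx62 and prx29 have the opposite pattern.

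Under both stresses together genes also rose in shoots. Against the N+W+ libraries, which both stress comparisons share, 16 genes rose and 2 fell under N-W-, where 4.33% and 2.51% of all genes tested were called. The log2 changes were 7.61 ± 0.83 for prx2, 5.89 ± 0.73 for prx132, 5.68 ± 0.95 for prx58, 5.64 ± 0.65 for PRX134, 4.88 ± 0.64 for prx32 and 4.87 ± 1.10 for prx17. The 2 genes that fell were prx62, by 5.27 ± 0.50, and prx29, by 3.30 ± 0.42. The median log2 change was 1.98 over the 64 tested, or 1.77 where genes without a read in a group were set to their bound, against 0.05 over all genes.

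The shoot counts depended on single libraries. Where a library is left out, the lone library of its treatment is assumed to vary like the others. Without the IR64 N+W+ library both counts fell to 0, with an adjusted p of 0.0563 for prx2, prx132, prx62 and prx29 under N-W+ at their largest. Without the N22 N+W+ library 5 and 4 genes were called in the single and the combined stress, and without the shallow N22 N-W+ library 9 and 18. Without the IR64 N-W- library 34 and 11 were called, and without the N22 N-W- library 34 and 27.

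Other markers moved with nitrogen in these shoots. The green tissue genes summed to 223300, 49780, 125600 and 33800 CPM in IR64 and 78550, 17280, 80960 and 36650 CPM in N22, with 30 or 31 of 31 genes at 1 CPM or more. The root genes summed to 40.2, 160.4, 63.3 and 103.4 CPM in IR64 and 31.4, 84.5, 31.1 and 75.5 CPM in N22, with 3 to 9 of 10 at 1 CPM. Of these, the nitrate transporter gene NRT2.4 alone held 115.8 CPM in IR64 N-W+. The defining root gene RCc3 was at 0, 5.02, 1.08 and 15.25 CPM in IR64 shoots and 0.299, 4.93, 0.626 and 0.187 CPM in N22 shoots, against 364.4 CPM or more in every root library. RCc2 held 0, 3.18, 0.108 and 5.27 CPM in IR64 shoots and 0, 7.4, 0 and 1.78 CPM in N22 shoots. The silicon transporter gene LSI1, also on this list, went the other way, with 9.69, 4.19, 6.18 and 4.37 CPM in IR64 shoots. In N22 shoots LSI1 held 21.1, 3.39, 8.13 and 4.96 CPM. The 9 genes with OSH symbols, listed for meristem and young stem, summed to 70.05, 77.3, 57.2 and 105.9 CPM in IR64. In N22 they summed to 143.1, 111.9, 86.5 and 136.6 CPM, so that low and optimal nitrogen overlapped. Most of each sum came from Osh69, at 39.9 to 122 CPM, so the sums say little about the other genes of this list. The study calls Osh36 an AAT-like protein. The homeobox gene OSH1 held 0, 4.52, 0 and 7.96 CPM in IR64 and 0, 10.79, 0.156 and 0.0935 CPM in N22. OSH15 held 0, 1.51, 0 and 3.59 CPM in IR64 and 0.150, 5.86, 0.626 and 0.935 CPM in N22. OSH3 held 0, 1.34, 0.325 and 1.46 CPM in IR64 and 0, 5.24, 0.313 and 0 CPM in N22. OSH6 held 0, 1.34, 0 and 3.14 CPM in IR64 and 0, 4.625, 0 and 0 CPM in N22. OSH42 went the other way in IR64, with 17.3, 4.52, 4.88 and 4.49 CPM. The root genes prx107 and prx67 had no read in any low nitrogen shoot library and prx54 at most 0.308 CPM. Other genes called higher in roots than in shoots rose in shoots under N-W+, among them prx64, prx17 and prx128. The last went from 2.07 to 26.1 CPM in IR64 and from 1.05 to 55.5 CPM in N22. The part of these tissues in the shoot changes was not tested.

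Low water alone gave no call in shoots. None of the 64 genes passed under N+W- (0.0% of all genes rose and 0.0% fell), with 16 at an unadjusted p under 0.05 (11.6% of all genes), a smallest adjusted p of 0.276, and 10 calls in DESeq2 (2.8% of all genes). The smallest p belonged to prx16, with a log2 value of 1.65 ± 0.31, PRX123, with 1.91 ± 0.39, and prx20, with 1.45 ± 0.31. Their N+W- libraries were above N+W+ in both genotypes. For prx16 the values were 49.9, 65.6, 144.4 and 59.1 CPM in IR64 and 38.6, 49.0, 130.1 and 47.6 CPM in N22, so that N+W- was the highest library of each genotype. All 3 genes were among the DESeq2 calls, with an adjusted p of 2.13e-05 for prx16.

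In roots the genes called at low nitrogen mostly fell. Under N-W+ against N+W+, 12 genes fell and 1 rose of the 89 past the filter, where 2.27% of all genes tested fell and 0.564% rose. The median log2 change was -0.96 over the 89 genes and 0.04 over all genes, and 76 of the 89 had a value below 0.

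Markers moved with nitrogen in roots too. The root genes summed to 1830, 7918, 3057 and 5830 CPM in IR64 roots and 5302, 10740, 5353 and 5115 CPM in N22 roots. With 8 to 10 of 10 at 1 CPM or more, they were highest under N-W+ in each genotype. That rise came from nitrate transport genes, such as NRT2.3, from 19.8 to 2255 CPM in IR64 and from 68.0 to 2729 CPM in N22. RCc2 fell from 30.6 to 19.7 CPM in IR64 and from 101.9 to 21.4 CPM in N22. LSI1 and LSI2 fell in IR64 and rose in N22. RCc3 held 585, 607.5, 2094 and 476.3 CPM in IR64 roots and 2236, 364.4, 1153 and 791.2 CPM in N22 roots. The green tissue genes summed to 60.8, 27.5, 64.5 and 86.8 CPM in IR64 roots and 136.2, 23.6, 123.4 and 68.9 CPM in N22 roots, lowest under N-W+ in each genotype, with 8 to 20 of 31 at 1 CPM. The part of these tissues in the root changes was not tested.

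The most highly expressed gene among those that fell was prx54, whose root libraries held 295.8, 67.5, 432.8 and 89.1 CPM in IR64 and 925.2, 130.5, 942.0 and 206.3 CPM in N22. Within each genotype both low nitrogen libraries lay below both others, and the joint log2 change was -2.49 ± 0.28 (adjusted p = 0.00818). For prx81 (Os06g0522300, chromosome 6 from 19271256 to 19272675) the values were 23.2, 1.95, 3.56 and 5.81 CPM in IR64 and 27.6, 4.89, 7.56 and 3.74 CPM in N22, a change of -2.97 ± 0.48 (adjusted p = 0.0240). Its N+W+ libraries stood above all 3 stress libraries of each genotype. PRX125 (Os10g0109300) held 35.0, 4.77, 26.2 and 8.96 CPM in IR64 and 49.5, 8.90, 31.4 and 39.65 CPM in N22, a change of -2.69 ± 0.46 (adjusted p = 0.0311). Its fall under N-W+ was seen in both genotypes, but its N22 library under N-W- was close to N+W+. Under library totals it missed the threshold (adjusted p = 0.0549), as did prx16 (adjusted p = 0.0849), whose change was -2.03 ± 0.38.

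The other genes that fell were prx130, by 1.96 ± 0.30, prx40, by 1.74 ± 0.29, and prx90, prx108, prx68, prx117, prx128 and prx107, by 1.36 to 1.73. All of these except prx90 had also been called higher in roots than in shoots. The gene prx90 had 23.4% and prx117 35.1% of their root reads mapped uniquely, so that reads of close copies could not be separated. The only gene that rose, prx50 (Os03g0762200, chromosome 3 from 31526602 to 31528069), held 3.02, 12.6, 4.05 and 8.25 CPM in IR64 and 3.82, 15.5, 5.11 and 8.92 CPM in N22, a change of 2.04 ± 0.29 (adjusted p = 0.0155). The low nitrogen libraries were above the others in both genotypes, but only 0.146% of its root reads mapped uniquely, and the reads may belong to a copy elsewhere. No gene was called under N-W+ without the IR64 N-W+, the N22 N+W+ or the N22 N-W+ root library, and 1 gene without the IR64 N+W+ library.

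Under N-W- only prx54, with a log2 change of -1.96 ± 0.27 (adjusted p = 0.0190), and prx117 (Os08g0113000), with -1.98 ± 0.28 (adjusted p = 0.0198), fell in roots, and none rose. Over all genes 1.22% fell and 0.399% rose. The next gene, prx72, had a value of -1.64 ± 0.31 and an adjusted p of 0.0510, and it passed under library totals, without the read filter, with unique reads and in DESeq2. Its root libraries held 289.9, 214.2, 426.0 and 131.2 CPM in IR64 and 719.2, 376.0, 949.2 and 161.1 CPM in N22. Leaving out 1 of the 8 libraries gave between 0 and 4 calls, with 0 without either N+W+ library or the N22 N-W- library.

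Low water alone called no gene in roots either, where 0.0% of all genes rose and 0.00824% fell. There were 14 genes at an unadjusted p under 0.05 (7.27% of all genes) and 2 calls in DESeq2 (1.43% of all genes), and the smallest adjusted p was 0.185. The values of smallest p were -1.94 ± 0.32 for prx83, -2.25 ± 0.46 for prx81 and -2.98 ± 0.85 for prx84, which lie near each other on chromosome 6 between 19194458 and 19272675. For prx83 the root values were 49.9, 20.1, 10.1 and 24.8 CPM in IR64 and 21.4, 18.6, 7.56 and 15.9 CPM in N22, with N+W- lowest in each genotype. The genes prx83 and prx81 were the 2 called in DESeq2, with adjusted p of 0.00017 and 0.00476.

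**Figure D4:**
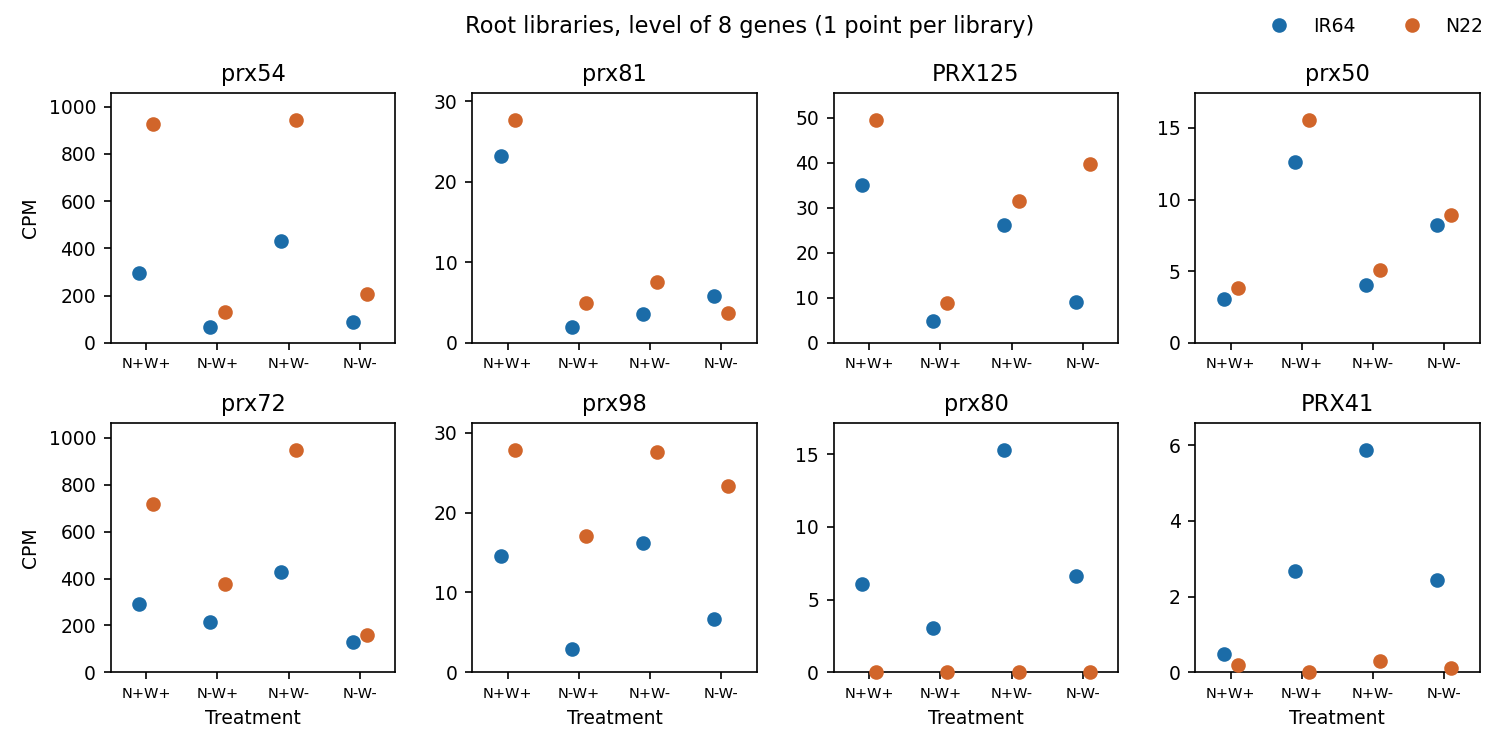
Level of 8 genes in the 8 root libraries, in CPM (vertical axis, from 0, with its own scale in each panel) by treatment, 1 point per library, coloured by genotype. The points of prx54, prx81 and PRX125 are lower under N-W+ than under N+W+ in both genotypes and those of prx50 higher, prx98 lies higher in N22 in each treatment, and prx80 is on the axis in all 4 N22 libraries.

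The responses of root and shoot to nitrogen were then tested against each other over all 16 libraries, with both water levels together. The root response was called lower than the shoot response for 15 of 91 genes and higher for 1, where 2.74% and 0.799% of all genes were called. The genes with the largest difference were prx2 at -8.01 ± 0.61 (adjusted p = 0.000991), prx69 at -7.70 ± 1.14, PRX134 at -7.21 ± 0.77, PRX42 at -5.88 ± 1.05, prx17 at -5.73 ± 0.73 and prx32 at -5.29 ± 0.78 on the log2 scale. In roots prx2 held 8.46, 8.66, 13.1 and 11.3 CPM in IR64 and 11.55, 5.24, 7.46 and 11.45 CPM in N22, where low and optimal nitrogen overlapped, in contrast to the shoot values above. The gene called in the other direction was prx62, at 6.12 ± 1.29 (adjusted p = 0.0352), which had at most 2.14 CPM in roots and kept its call in 6 of the 16 fits with a library left out.

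Some of these differences rest on few shoot reads at optimal nitrogen. The gene prx69 had no read in the 4 shoot libraries at optimal nitrogen and 3.35, 1.46, 2.47 and 0.281 CPM in the low nitrogen ones. For PRX42 7.51% of the root reads mapped uniquely. Of 61 genes in the N-W+ fits of both tissues, 36 had a value below 0 in roots and above 0 in shoots, which is 59.0%, against 26.4% of 21111 genes. The count of 16 lay between 6 and 24 when 1 library was left out, with 6 without either N22 N-W+ library and 24 without either N22 N-W- library.

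**Figure D5:**
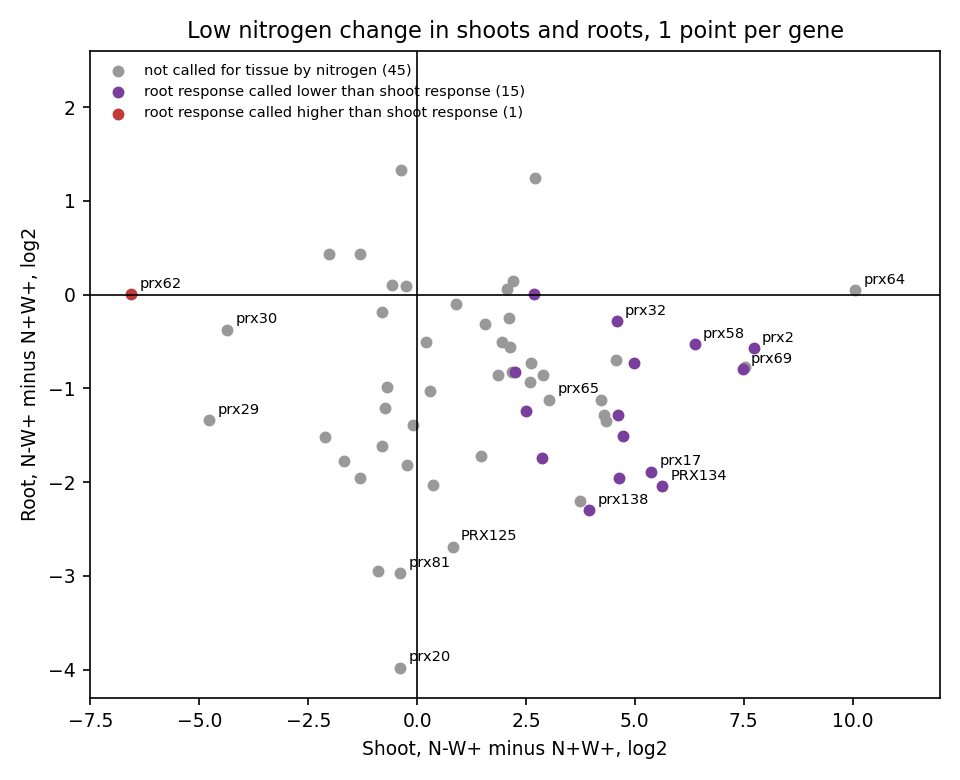
Log2 change under N-W+ against N+W+ in shoots (horizontal axis) and in roots (vertical axis) for the 61 genes in both fits, 1 point per gene, coloured by the call of the test of tissue by nitrogen. A group of 36 genes lies to the right of and below the axes, among them all of the 15 genes called except prx4, which lies on the horizontal axis, and prx62 is the point farthest to the left, at -6.57 in shoots and 0.01 in roots.

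The 2 genotypes differed in single genes. In roots 5 genes were higher and 5 lower in N22 than in IR64 on average over the treatments, of 89, where 6.72% and 7.33% of all genes were, so that the family was close to the background. The most extreme was prx80 (Os06g0490400, chromosome 6 from 16896478 to 16897774), with 6.04, 3.02, 15.3 and 6.62 CPM in IR64 roots and no read in the 4 N22 root libraries. It was at least 25.3-fold lower in N22 with a floor of 3 counts in each N22 library (adjusted p = 0.00209), and kept its call whichever library was left out. An N22 shoot library held a read of it, at 0.156 CPM. PRX41 (Os03g0339300) held 0.483, 2.69, 5.87 and 2.44 CPM in IR64 roots and 0.206, 0, 0.295 and 0.121 CPM in N22 roots, a log2 difference of -4.02 ± 0.77 (adjusted p = 0.0145). In shoots PRX41 held 5.08, 32.5, 3.14 and 37.2 CPM in IR64 and 3.89, 25.9, 6.41 and 61.2 CPM in N22, where the genotypes overlapped.

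Of the other root differences, prx15 was lower in N22 by 2.03 ± 0.48. Its IR64 libraries held 8.70, 1.21, 1.32 and 7.44 CPM, and its N22 libraries at most 1.33 CPM. The 9 genes with OSH symbols summed to 149, 115.9, 154.1 and 352.9 CPM in IR64 roots. In N22 roots they summed to 209.5, 215.9, 188.5 and 224.5 CPM, where the genotypes overlapped. Osh69 made up much of these sums, at 58.6 to 167 CPM in IR64 and 118.3 to 184 CPM in N22. OSH15 held 23.7, 3.29, 9.6 and 100.9 CPM in IR64 roots and at most 1.96 CPM in N22 roots. OSH1 held 5.8, 0, 0.0827 and 8.66 CPM in IR64 roots and at most 0.12 CPM in N22 roots. OSH3 held 4.95, 0, 0 and 7.54 CPM in IR64 roots and at most 0.295 CPM in N22 roots. For OSH6 and OSH42 the genotypes overlapped. The part of meristem tissue in the difference of prx15 was not tested. The genes prx87 and prx90 were lower by 1.14 and 0.69 and lost the call whichever library was left out, and prx15 kept its call in 2 of 8 such fits. The count of 10 dropped to between 5 and 7 in these fits, with 5 without the N22 N+W- library.

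Higher in N22 roots were prx98, by 1.48 ± 0.31, prx54, by 1.23 ± 0.19 (adjusted p = 0.00601), prx72, by 0.90 ± 0.22, prx117, by 0.89 ± 0.19, and prx108, by 0.76 ± 0.19 on the log2 scale. Of these, prx54 kept its call in 8 of 8 fits with a library left out, prx98 in 6, prx117 in 4, and prx72 and prx108 in 2. Under library totals prx108 missed the threshold (adjusted p = 0.0605). For prx98 (Os07g0115300) the values were 14.5, 2.95, 16.1 and 6.72 CPM in IR64 and 27.85, 17.1, 27.6 and 23.4 CPM in N22. Each N22 library lay above the IR64 library of its treatment and above all IR64 libraries, and 47.6% of the root reads mapped uniquely. In shoots 1 gene was higher in N22 and none lower, where 2.49% and 4.13% of all genes were called. This was prx116 (Os07g0694300), with 10.8, 10.55, 16.5 and 11.4 CPM in IR64 and 17.05, 27.1, 54.4 and 36.2 CPM in N22, a difference of 1.36 ± 0.28 (adjusted p = 0.0309). It kept the call in 2 of 8 fits with a library left out, and 56.1% of its shoot reads mapped uniquely. The next genes by p were prx32, with 1.58 (adjusted p = 0.0747), and prx70, with -1.36 (adjusted p = 0.0817).

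Whether the response to nitrogen differed between the genotypes was tested with a further term. No gene was called in roots or in shoots, as over all genes (0.0% higher and 0.0% lower in each tissue), with 1 gene at an unadjusted p under 0.05 in each tissue (1.21% of all genes in roots and 2.39% in shoots) and 0 calls in DESeq2 (0.0165% and 0.0917% of all genes). This does not show that the genotypes responded alike. The smallest p belonged to prx63 in roots, with a value of 2.08 ± 0.83, and to prx25 in shoots, with -7.18 ± 2.40. The shoot libraries held 0, 18, 0 and 21 reads of prx25 in IR64 and 10, 18, 17 and 8 in N22. Without a read in IR64 at optimal nitrogen, the size of its value is not fixed. Next in roots were prx98, with 1.30 ± 0.54, and prx122, with -1.24 ± 0.60, and in shoots prx78, with 1.56 ± 0.70, and prx90, with 1.56 ± 0.76. This fit had 2 residual degrees of freedom, and in shoots up to 3 genes were called with a library left out, the most without the N22 N-W+ library.

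Within each genotype the libraries could only be compared in pairs, without a test. A gene was counted where its log2 ratio to N+W+ lay beyond 2 and at least 1 of both libraries held 1 CPM. In IR64 roots 2 genes were higher and 13 lower under N-W+, where 2.42% and 5.27% of all genes at that level were. Under N+W- 6 were higher and 8 lower (1.89% and 3.58% of all genes), or 10 and 6 with library totals, and under N-W- 3 and 6 (2.72% and 4.24%). In roots of N22, 1 was higher and 23 lower at low nitrogen (2.27% and 5.74%), 0 and 4 at low water (1.22% and 1.33%), and 0 and 12 at the combined stress (2.11% and 4.02%). For N-W+, N+W- and N-W- in turn, 84, 89 and 85 genes of the family were at that level in IR64 roots. In N22 roots 84, 83 and 86 were.

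In IR64 shoots 26 were higher and 6 lower under N-W+ (14.5% and 9.61% of all genes), 2 and 2 under N+W- (4.6% and 4.57%), and 30 and 5 under N-W- (15.7% and 10.0%). In N22 shoots 37 were higher and 6 lower under N-W+ (17.1% and 10.5%), 14 and 3 under N+W- (6.57% and 3.49%), and 24 and 8 under N-W- (9.96% and 5.07%).

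Single genes stood out in such pairs. The largest rise in N22 shoots under N+W- was that of prx71, from 108 to 2287 reads, a log2 ratio of 4.46 with a counting interval from 4.19 to 4.76. Its shoot libraries held 479.4, 168.2, 494.7 and 207.6 CPM in IR64 and 16.15, 119.0, 357.7 and 193.0 CPM in N22, so that the N22 library at N+W+ was far below the other seven. The same library was the lowest for prx65, at 25.6 CPM, and for prx89, at 20.3 CPM against 163.4 CPM or more in the others. In N22 roots prx12 (Os01g0326000) went from 1640 reads at N+W+ to 188 at N+W-, a log2 ratio of -3.19 with an interval from -3.42 to -2.98. Its root libraries held 11.2, 4.57, 19.3 and 7.13 CPM in IR64 and 169.1, 99.6, 18.5 and 102.6 CPM in N22, where N+W- alone resembled IR64.

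In IR64 roots prx84 fell from 111 reads at N+W+ to 13 at low water and 15 at the combined stress, log2 ratios of -3.59 and -3.09, and in roots of N22 from 69 to 5 at the combined stress, a log2 ratio of -3.44. The gene prx7 had 0 reads at N+W+ and 39 at N+W- in IR64 roots, at least 8.90-fold higher, but none of its reads mapped uniquely. Reads were lost entirely by prx85 under N-W+ in IR64 roots, from 13 to 0, by prx82 under N-W+ in N22 roots, from 18 to 0, and by prx79 under N-W- in IR64 shoots, from 28 to 0. With the floor of 3 counts these were at least 7.80-fold, 7.09-fold and 13.2-fold lower.

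The 9 pox genes outside the rule were listed after their names had been seen. Under N-W+ in roots POX22.3 (Os07g0677200), a gene known for its induction by bacterial infection in rice, fell by 2.53 ± 0.32 on the log2 scale (adjusted p = 0.0101), and Pox (Os12g0112000) by 2.23 ± 0.33. In shoots POX22.3 fell by 2.68 ± 0.58 (adjusted p = 0.0312), with 32.6, 5.69, 46.5 and 3.37 CPM in IR64 and 33.65, 4.32, 47.9 and 12.3 CPM in N22. A gene listed as Pox1(Px, Os05g0499300, rose in shoots by 6.98 ± 0.88 (adjusted p = 0.0124), with 0.477, 66.1, 2.28 and 149.6 CPM in IR64 and 1.05, 130.7, 2.19 and 43.0 CPM in N22. Low and optimal nitrogen were apart for both genes in both genotypes.

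Genes that make the substrates of these enzymes, or share their functions, were counted in the same fits. Of 57 genes named for monolignol synthesis (phenylalanine ammonia-lyase, 4-coumarate-CoA ligase, cinnamoyl-CoA reductase and others), 4 rose and 8 fell in shoots under N-W+ among 47 tested, with a median log2 change of -0.36. Over all genes 7.6% rose and 5.38% fell in shoots and 0.564% rose and 2.27% fell in roots, to be read beside each count here and in the lists that follow. Those that rose included OsHCT4 at 3.42 ± 0.75 and OsPAL02 at 2.06 ± 0.45, and those that fell OsPAL05 at -6.25 ± 1.38 and OsPAL07 at -2.34 ± 0.58. In roots 2 of 49 fell under N-W+, OsPAL07 by 1.83 ± 0.31 and OsCAD8A by 1.71 ± 0.34. Of 25 laccases, which also oxidise monolignols but with oxygen, 19 were tested in roots, with 1 that fell, OsLAC12 by 1.29 ± 0.24, and a median of -1.56, and 14 in shoots, with 1 that fell, OsLAC7 by 5.28 ± 0.68, and a median of 1.31.

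Of the 10 NADPH oxidases, which make superoxide at the plasma membrane, RBOHH alone rose in shoots under N-W+, by 3.74 ± 0.68 (adjusted p = 0.0224), and none of 9 was called in roots. Of 16 ascorbate peroxidases, glutathione peroxidases and catalases, which remove hydrogen peroxide inside the cell, 7 fell and 0 rose in shoots under N-W+, with a median of -1.24, and none was called in roots. Among the 7 were the chloroplast ascorbate peroxidase APX8, by 3.43 ± 0.48 (adjusted p = 0.0142), and the leaf catalase CATC, by 3.31 ± 0.59 (adjusted p = 0.0212). Of 7 superoxide dismutases OsSOD2 fell, by 2.48 ± 0.53, and the others were not called. These lists carry no test of their own.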

How the data were processed

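The 16 libraries hold 1 library for each of 2 genotypes, 2 tissues and 4 treatments, each from 3 pooled biological replications. The p-values therefore measure the spread between libraries that the terms of each fit leave over. For treatment and genotype within a tissue, this is how far treatment effects vary between the genotypes. For the fits over both tissues, it is how far the root to shoot difference varies over the sets of plants. The authors trimmed the reads, mapped those of both genotypes to the rice build IRGSP-1.0 in a CLC workbench, and deposited for each gene the total and unique exon reads as counts, and RPKM values scaled to the mapped fragments of the library. The strand setting of the counting is not given in the sources used here. Total exon reads were used for every test, and the deposited RPKM only for levels between genes. No column of other samples was found (0 columns).

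Counts were tested with the quasi-likelihood test of edgeR 4.0.16 in R 4.3.3 (robust, filterByExpr, TMM), on all genes, with Benjamini-Hochberg adjustment and calls at 0.05. Fits within a tissue had terms for genotype and treatment, or genotype by nitrogen and by water, and fits over all 16 libraries a term for each set of plants. Libraries of a genotype were compared in pairs by a log2 ratio beyond 2 with a prior count of 0.5, at least 1 CPM, exact 95% binomial intervals and a floor of 3 counts per library. Intervals and floors cover counting error only, since reads carry no molecular identifiers. Alternatives were DESeq2 1.42.0, library totals, no read filter, unique exon reads, a minimum of 5 CPM and leaving out each library. The fits were tested on simulated data with 200 changed genes. Many small changes were missed, and most of all changes by the fits for N-W+ in shoots and for genotype by nitrogen in roots, so that an absent call there says little.

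The text names the 6 genes of highest median RPKM in each tissue, up to 6 called genes of largest change per direction and test, the 3 of smallest p where fewer than 3 were called, the largest rise and fall of each pair of libraries with an interval beyond the threshold, and array neighbours. The other genes named, among them prx65, prx138 and prx89 in shoots and the pox genes, were chosen after their values were seen. The members and gene lists were chosen with earlier results of these data known. A list of Casparian strip genes matched no symbol, and 40 genes of seed remnants summed to at most 139.3 CPM in roots and 29.3 CPM in shoots.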

Additional observations from a re-analysis of the deposited data

Results flagged for a closer look

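The response to low nitrogen differed between root and shoot for 16 genes by the test of tissue by nitrogen, and this tested difference is why they are listed. Values are the root response minus the shoot response on the log2 scale. It was 6.12 for prx62. It was -8.01 for prx2, -7.70 for prx69, -7.21 for PRX134, -5.88 for PRX42, -5.73 for prx17, -5.29 for prx32, -5.25 for prx24 and -4.78 for prx58. It was -4.69 for prx138, -4.48 for prx128, -4.48 for prx27, -4.22 for prx97, -3.91 for prx40, -2.13 for prx51 and -2.01 for prx4.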

How the results depend on the processing

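DESeq2 called more genes, of the family and of all genes, whose share is given in brackets. In roots it called 26 under N-W+ (7.53%), 12 under N-W- (5.1%), 2 under N+W- (1.43%) and 18 between genotypes (18.5%). In shoots it called 29 under N-W- (16.5%), 10 under N+W- (2.8%) and 8 between genotypes (13.8%), and over both tissues 29 for tissue by nitrogen (11.1%). Library totals gave 8 calls in roots under N-W+, 4 under N-W- and 2 in shoots between genotypes. Without the read filter there were 5 in roots under N-W- and 2 in shoots between genotypes, and with unique reads 6 and 3. Library totals moved the median of all genes to 0.55 at low nitrogen and 0.58 at the combined stress in shoots, 0.18 at low nitrogen and 0.29 at low water in roots, 0.28 between genotypes in shoots and -0.50 for tissue by nitrogen. With a library left out, the counts ran from 0 to 16 in roots under N-W+, 0 to 4 under N-W- and 5 to 7 between genotypes. In shoots they ran from 0 to 34 under N-W+, 0 to 27 under N-W-, 0 to 2 between genotypes and 0 to 3 for genotype by nitrogen. They ran from 57 to 70 for root against shoot and 6 to 24 for tissue by nitrogen, and were 0 throughout under N+W- in both tissues. In pairs of libraries a minimum of 5 CPM left 5 genes for IR64 roots under N-W-, 21 for IR64 shoots under N-W+ and 7 for N22 roots under N-W-, and library totals 2 for IR64 shoots and 1 for N22 roots under N+W-. No gene named by the rule changed direction in these settings, which were not run for genes chosen after their values were seen. Single replicates could not be paired between groups, because each group is 1 library and the labels give no replicate numbers. The fits of genotype and treatment compare treatments within each genotype, and the fits over both tissues keep the libraries of a set of plants together. The cause of these changes was not tested. Depth limits genes with few reads, and the N22 N-W+ shoot library was both the shallowest and the one with the smallest share of exon reads.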
